A study of Mus musculus with 24 samples.

Results

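Bone marrow-derived macrophages from Ninj1 knockout mice were compared after stimulation with Pam3 and in media alone. The comparison took the 6 libraries labelled as Ninj1 knockout with Pam3 (KO_Pam3) and the 6 labelled as Ninj1 knockout without priming, in media only (KO_media), which are 12 of the 24 libraries of the series. All 12 carried the knockout, and the labels separate the groups by the stimulation alone. The remaining libraries are wild-type C57BL/6 macrophages in media (WT_media, 6 libraries) and after Pam3 (WT_Pam3, 6 libraries). The labels give male mice for all 12 wild-type libraries and no sex for the knockout ones. Xist, the X-inactivation transcript of female cells, stood at 233 to 796 CPM (depth-scaled counts) in the wild-type and 488 to 637 CPM in the knockout libraries, and the Y-linked genes Ddx3y, Uty, Kdm5d and Eif2s3y held at most 4 reads together in any of the 24, which goes against the label of male. The wild-type libraries served to estimate the spread between libraries and to test where the response of knockout cells differed. The cells are primary macrophages grown from marrow precursors, and polyA RNA was sequenced as single-end reads. The sources used here do not give the dose and duration of Pam3, the deleted part of Ninj1, or the age of the mice. Nothing in the labels ties the 6 libraries of a group to separate mice or separate dishes. The p-values therefore reflect library-to-library spread, part of which may be technical.

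Pam3 is the common short name of Pam3CSK4, a synthetic triacylated lipopeptide that mimics bacterial lipoproteins. It is bound by the pair of Toll-like receptors TLR1 and TLR2, which signal through the adaptors MyD88 and TIRAP, the IRAK kinases and TRAF6 to NF-kB and the MAP kinases. In macrophages this pathway is known for switching on cytokines, chemokines and antimicrobial enzymes together with its own inhibitors. It also primes the inflammasome by raising NLRP3 and the precursor of IL-1 beta. NINJ1 is a small protein of the plasma membrane that tears the membrane open late in lytic cell death.

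Pam3 changed most of the transcriptome of knockout macrophages. Of 14435 genes with enough counts to be tested, 85.0% passed the test at an adjusted p under 0.05, 5803 of them higher (40.2%) and 6470 lower (44.8%), while 2162 (15.0%) did not pass. All 6 libraries of KO_Pam3 lay above all 6 of KO_media for 36.0% of tested genes and below them for 39.7%. The response was far from symmetric in size. At least 4-fold changes were 1051 upward (7.28% of tested genes) and 1598 downward (11.1%), at least 64-fold changes 122 upward and 51 downward, and at least 256-fold changes 43 upward and 1 downward. The middle of the distribution lay near 0, with a median log2 fold change of -0.07 and the 5th and 95th percentiles at -2.87 and 2.54. Genes that rose at least 4-fold took 3.81% to 4.37% of all counted reads in KO_media and 27.2% to 27.7% in KO_Pam3. Those that fell at least 4-fold took 7.50% to 7.89% and 0.771% to 0.818%.

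These values are relative to the scaling of the libraries. The TMM normalization factor averaged 1.19 in KO_media and 0.855 in KO_Pam3, and scaling by total reads alone shifted the median log2 fold change by -0.49, to 3685 genes higher and 8935 lower, or 29.2% higher among the calls against 47.3%. Among the named genes that passed the test, Cd36, Cd80 and Cd86 changed direction under another scaling, and changes smaller than that shift are read only relative to the median gene. Totals were 33184815 to 37216042 counted reads per library in KO_media and 34207856 to 40253270 in KO_Pam3 and did not differ past the test (exact permutation test, two-sided, n = 6 and 6, p = 0.216). Genes with at least 1 read numbered 19423 ± 120 in KO_media and 18394 ± 194 in KO_Pam3 (SD, n = 6), and 19291 and 18179 after thinning every library to 33184815 reads. KO_media replicate 1 stood apart among the knockout libraries: in 46 of the gene and group pairs named below it held an outlying highest value, mostly in inflammatory and interferon-stimulated genes, and without it 5830 genes were higher and 6459 lower. The difference in genes with a read had an exact permutation p of 0.00216 (adjusted p = 0.00289 over 4 measures), the smallest that 6 against 6 can give.

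**Figure D1:**
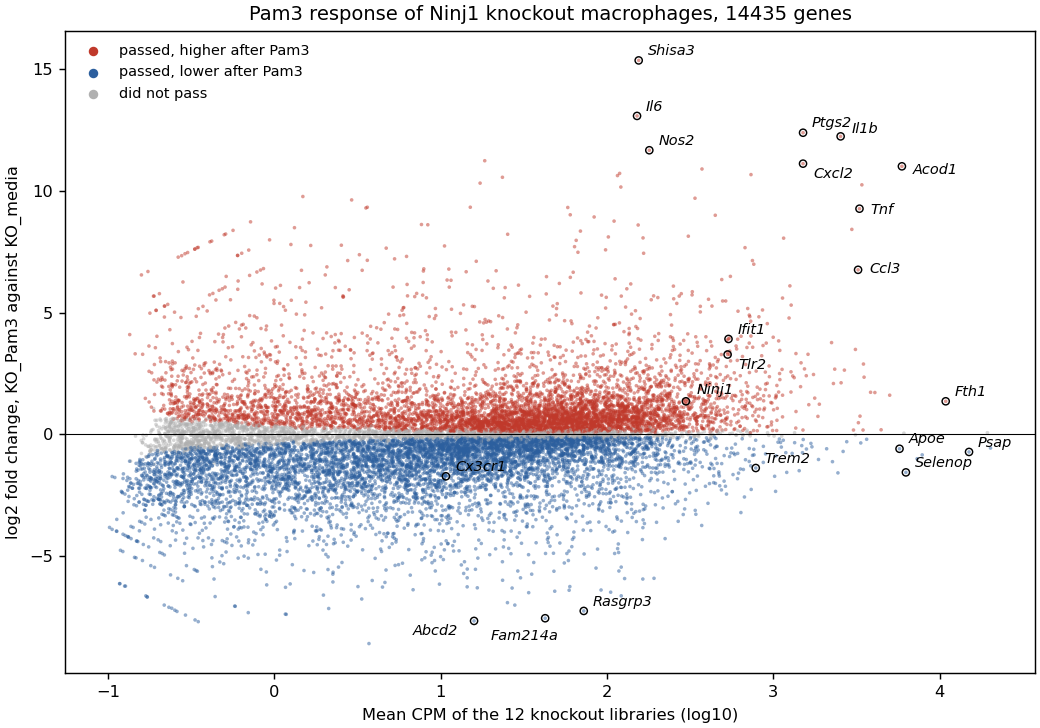
Response of each of 14435 tested genes in knockout macrophages, as the log2 fold change of KO_Pam3 against KO_media (vertical axis), against its mean CPM over the 12 knockout libraries on a log10 scale (horizontal axis). Red and blue points passed the test upward and downward and grey points did not. Named circles include Shisa3 and Il6 at the top and Abcd2 and Fam214a at the bottom, and rises extend further from 0 than falls.

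The largest rises were in genes that were almost silent in media, many of them inflammatory mediators. Shisa3, which encodes a Shisa-family membrane protein, had 1 read over all 6 KO_media libraries and 58684 over the KO_Pam3 libraries, where it stood at 290 to 332 (median 313) CPM. Its ratio of depth-scaled counts was 78555, with an exact 95% interval of 14099 to 3102819 that covers counting error only. Il6, which encodes the cytokine interleukin 6, had 8 reads in KO_media and 57431 in KO_Pam3, a ratio of 9610 (exact 95% interval 4877 to 22260). In the 6 KO_Pam3 libraries Il6 ran from 276 to 321 (median 310) CPM. CPM are counts scaled to the TMM-adjusted library size, and they compare groups for 1 gene and not genes with each other.

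Ptgs2, the inducible cyclooxygenase of prostaglandin synthesis, ran from 0.448 to 0.645 CPM (median 0.562) in KO_media to 2745 to 3406 CPM (median 2932) in KO_Pam3 (log2 fold change 12.39, SE 0.206, adjusted p = 2.3e-27). Il1b, the precursor of interleukin 1 beta, ran from 0.548 to 2.68 CPM (median 0.772) in KO_media to 4841 to 5403 CPM (median 5051) in KO_Pam3 (log2 fold change 12.24, SE 0.22, adjusted p = 1.38e-26). The highest KO_media value of Il1b belonged to replicate 1, and it was still far below every KO_Pam3 library. Nos2, the inducible nitric oxide synthase, ran from 0.0235 to 0.309 CPM (median 0.0793) in KO_media to 315 to 431 CPM (median 353) in KO_Pam3 (log2 fold change 11.67, SE 0.183, adjusted p = 6.54e-28). The neutrophil-attracting chemokines Cxcl2, Cxcl1 and Cxcl3 rose by 11.12, 10.90 and 10.72 on the log2 scale. Acod1, the enzyme that makes itaconate, ran from 3.13 to 16.9 CPM (median 3.56) in KO_media to 11652 to 12263 CPM (median 11771) in KO_Pam3, and the highest KO_media value was again that of replicate 1 (log2 fold change 11.01, SE 0.369, adjusted p = 1.78e-20). The scavenger receptor Marco rose by 10.67. Mir155hg, the host transcript of microRNA 155, rose as well, and Lad1, which encodes a filament-anchoring protein, rose by 10.63. In each of these 12 genes all KO_Pam3 libraries lay above all KO_media libraries. Mir155hg had 3 reads over the KO_media libraries and 6980 over the KO_Pam3 libraries, a ratio of 3115 (exact 95% interval 1065 to 15106).

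On the deposited RPKM scale, which divides by gene length and allows genes to be set side by side, the largest rises in level were in Fth1, the ferritin heavy chain gene, (6246 ± 323 to 16369 ± 896 RPKM), Ccl3 (68.4 ± 3.83 to 7578 ± 370 RPKM), Acod1 (1.96 ± 1.85 to 4094 ± 90.3 RPKM), Ccl5 (14.4 ± 3.55 to 3915 ± 205 RPKM), Tnf (5.79 ± 0.758 to 3638 ± 129 RPKM) and Il1b (0.697 ± 0.523 to 3393 ± 134 RPKM). Tmsb4x, the actin-binding thymosin beta 4, Ccl4, the acute-phase gene Saa3 and the lectin receptor Clec4e completed the 10 largest. Fth1 and Tmsb4x were abundant in media already and rose by 1.36 and 1.61 on the log2 scale. The others came from under 100 RPKM. Levels of Fth1 are uncertain, because reads shared with its processed copies are absent from unique counts.

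**Figure D2:**
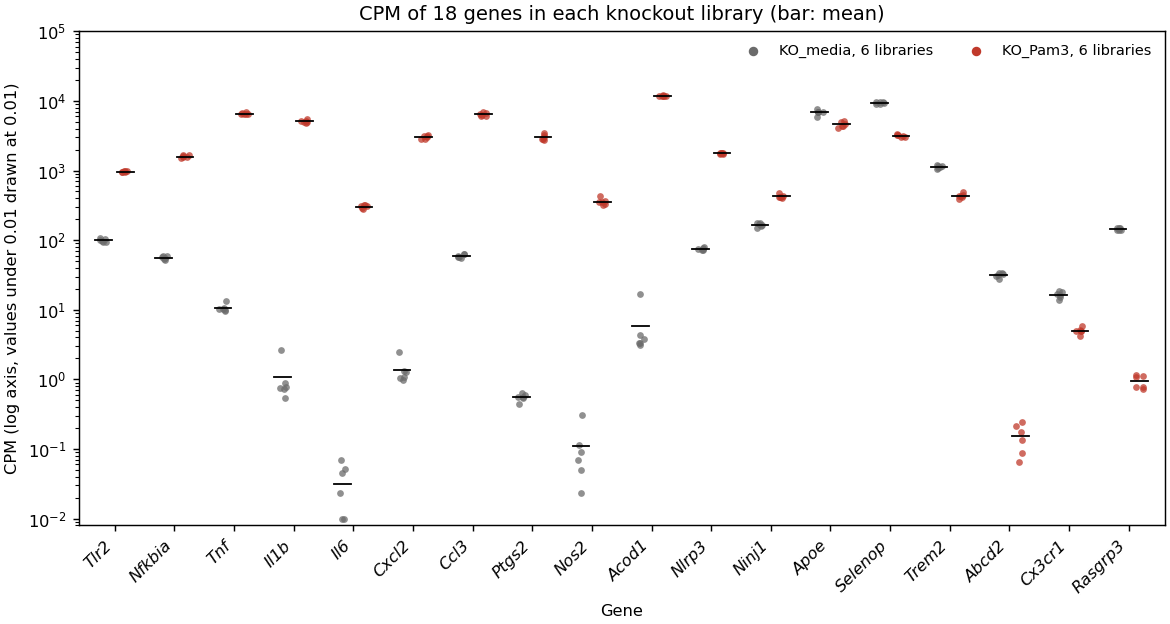
CPM of 18 genes in each of the 12 knockout libraries, on a log axis with values under 0.01 drawn at 0.01. Grey points are the 6 KO_media libraries, red points the 6 KO_Pam3 libraries and bars the group means. The groups do not overlap for any of the 18 genes, and single KO_media libraries stand above the others for Il1b, Cxcl2 and Acod1.

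Promoters of some of these genes are shown because several of the strongest responders shared letters known from NF-kB binding sites. Promoters were taken from RefSeq (GRCm38.p6), as 250 bases before to 50 bases after the annotated start, 1 per gene. Of the 12 genes with the largest rises 11 had a promoter in that table, and 7 of them (Acod1, Cxcl1, Cxcl2, Cxcl3, Il6, Marco and Shisa3) held the core GGNNTTTCC on 1 of the strands. For Ptgs2, Il1b, Nos2, Mir155hg and Lad1 the core was not found or no promoter was listed. Only stretches with a match are shown, and Nfkbia and Tnfaip3 are added from outside the 12. The core of an interferon-stimulated response element, GAAANNGAA, is shown for interferon-induced genes. Each line is 80 bases upstream of the start, read along the gene's strand, with the matches of the named core in either orientation in capitals.
Il6: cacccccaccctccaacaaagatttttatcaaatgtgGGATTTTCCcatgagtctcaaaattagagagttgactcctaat
Acod1: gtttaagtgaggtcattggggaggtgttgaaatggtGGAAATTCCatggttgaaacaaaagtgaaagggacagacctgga
Cxcl1: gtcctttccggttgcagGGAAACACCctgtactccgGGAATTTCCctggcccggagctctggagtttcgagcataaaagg
Cxcl2: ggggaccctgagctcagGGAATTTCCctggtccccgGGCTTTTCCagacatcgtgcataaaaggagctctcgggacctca
Cxcl3: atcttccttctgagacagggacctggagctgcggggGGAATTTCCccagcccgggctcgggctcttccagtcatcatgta
Marco: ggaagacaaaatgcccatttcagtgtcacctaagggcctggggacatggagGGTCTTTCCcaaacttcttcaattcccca
Shisa3: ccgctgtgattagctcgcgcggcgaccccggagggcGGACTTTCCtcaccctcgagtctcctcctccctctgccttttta
Nfkbia: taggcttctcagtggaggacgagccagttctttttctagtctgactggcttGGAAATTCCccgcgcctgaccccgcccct
Tnfaip3: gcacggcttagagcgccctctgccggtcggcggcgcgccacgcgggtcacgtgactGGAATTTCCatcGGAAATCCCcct
Ifit1: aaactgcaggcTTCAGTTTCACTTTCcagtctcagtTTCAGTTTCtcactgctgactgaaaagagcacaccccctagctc
Isg15: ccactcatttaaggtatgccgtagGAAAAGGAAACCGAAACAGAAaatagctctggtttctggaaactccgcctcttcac
Rsad2: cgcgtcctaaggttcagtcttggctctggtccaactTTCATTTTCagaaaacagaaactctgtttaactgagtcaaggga
Cxcl10: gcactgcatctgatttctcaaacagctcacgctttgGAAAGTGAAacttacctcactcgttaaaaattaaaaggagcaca
The coordinates and strands are, in that order, chr5:30013034-30013113 (+), chr14:103046891-103046970 (+), chr5:90891139-90891218 (+), chr5:90903786-90903865 (+), chr5:90785993-90786072 (+), chr1:120505025-120505104 (-), chr5:67607777-67607856 (+), chr12:55492648-55492727 (-), chr10:19015411-19015490 (-), chr19:34640769-34640848 (+), chr4:156200841-156200920 (-), chr12:26456528-26456607 (-) and chr5:92349059-92349138 (-). Cxcl1, Cxcl2 and Tnfaip3 each show 2 matches of the NF-kB core within the stretch, and Ifit1 and Isg15 each show 3 matches of the interferon core, some of which overlap.

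The share of promoters with the NF-kB core rose with the size of the rise. It was 16.3% of 92 promoters of genes at least 64-fold higher, 14.7% of 225 at least 16-fold higher (which includes the former), 8.22% of 511 between 4- and 16-fold and 6.07% of 3247 under 4-fold. Genes that did not pass held it in 5.56% of 1277 promoters, genes at least 4-fold lower in 5.35% of 1158, all tested genes with a promoter in 6.16% of 10060 and all promoters of the table in 5.72% of 27025. The interferon core GAAANNGAA was in 17.4% of genes at least 64-fold higher, 12.4% at least 16-fold higher and 12.1% between 4- and 16-fold. Genes that did not pass held it in 7.60%, all tested genes with a promoter in 7.65% and all promoters in 8.57%. The AP-1 letters TGANTCA were in 11.6% of promoters of genes at least 16-fold higher, 11.4% between 4- and 16-fold, 4.23% of genes that did not pass and 7.34% of genes at least 4-fold lower. The cyclic AMP response letters TGACGTCA did not follow that order, at 2.67% of genes at least 16-fold higher, 3.99% of those that did not pass and 1.55% of those at least 4-fold lower. Over all tested genes with a promoter the AP-1 and cyclic AMP letters were in 5.25% and 3.23%, and over all promoters in 7.93% and 1.88%. Both strands were searched and the motifs can overlap each other. These are letter matches, given without a test. Base composition moved with the same classes, with a median GC content of 50.5% at 64-fold and more, 55.0% at 16-fold and more and 60.7% in genes that did not pass, and its part in the shares was not tested.

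**Figure D3:**
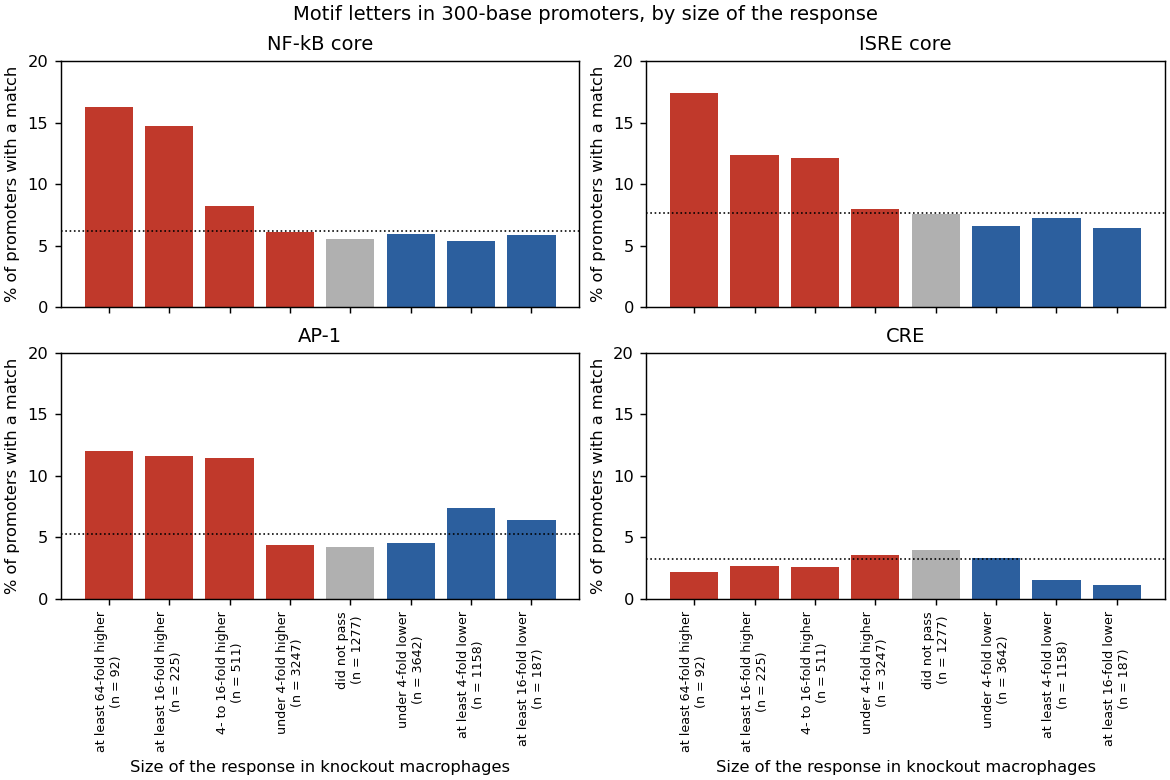
Share of 300-base promoters that hold each motif (vertical axes, percent), for classes of response size in knockout macrophages (horizontal axes, with the number of promoters). Red bars are genes that passed upward, grey genes that did not pass, blue genes that passed downward, and the dotted line is the share over all tested genes with a promoter. The NF-kB core goes from 16.3% in the class at least 64-fold higher to 5.56% in genes that did not pass.

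Strong responders also lay close together in the genome. Of the 313 genes at least 16-fold higher, 70 (22.4%) had another, non-overlapping gene of that class whose start was within 100 kb, against 4.46% of the other 14098 genes with a position. For genes at least 16-fold lower the shares were 12.4% and 4.53%. Runs of such risers included Ccl2, Ccl7 and Ccl12 on chromosome 11, Ccl22, Cx3cl1 and Ccl17 on chromosome 8, and Has1, Fpr1 and Fpr2 with Spaca6 on chromosome 17. Tnf and Lta, and Il1a and Il1b, were neighbours of this kind as well. Overlapping genes were not counted as neighbours because the reads carry no strand, and antisense transcripts such as Il1bos and Ptgs2os cannot be told apart from their partners where they overlap.

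The receptor genes for Pam3 and many of the first steps below them rose. Here and below, levels are mean CPM ± SD over the 6 libraries of a group, and a gene that rose or fell by a value did so on the log2 scale, past edgeR's quasi-likelihood test. For every list, the shares to set beside its counts are 40.2% higher and 44.8% lower over all tested genes. Of 30 genes of TLR1/2 recognition and adaptors 22 rose and 7 fell, with a median log2 fold change of 0.78 against -0.07 over all tested genes. With scaling by total reads 16 rose and 10 fell. Tlr2, the shared receptor subunit, ran from 92.9 to 106 CPM (median 98.2) in KO_media to 940 to 984 CPM (median 963) in KO_Pam3 (log2 fold change 3.28, SE 0.0442, adjusted p = 2.82e-29), and its partners Tlr1 and Tlr6 rose by 2.35 and 1.40. Cd14, the co-receptor that hands over lipopeptides, rose from 300 ± 8.35 to 2930 ± 102 CPM. The log2 fold change of Cd36, a further co-receptor, was 0.15, less than the shift between scalings. The adaptor Myd88 rose by 2.18, Tirap by 1.33 and the phosphoinositide kinase adaptor Pik3ap1 by 1.84, whereas Sarm1, an adaptor with an NADase domain, fell from 0.489 ± 0.0963 to 0.021 ± 0.0163 CPM. Among IRAK kinases, Irak3, an inactive member that restrains the pathway, rose by 4.13 and Irak2 by 3.45, Irak4 fell by 0.77, and Irak1 did not pass (-0.07). The ubiquitin ligase Peli1 rose by 2.49 while its relative Peli2 fell by 4.22. Map3k8 (TPL2), the kinase that leads to ERK, rose by 1.93.

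Other Toll-like receptors mostly went the other way, with 4 of 15 genes higher and 9 lower and a median of -1.03. Tlr4, the lipopolysaccharide receptor, fell from 161 ± 6.83 to 58.8 ± 4.98 CPM. Tlr9, the receptor for CpG DNA, fell from 97.5 ± 9.81 to 13 ± 0.564 CPM, and Tlr13, which senses bacterial ribosomal RNA, from 474 ± 14.4 to 116 ± 5.82 CPM. Cd180 and Ly86, which together form a TLR4-like complex, fell by 1.03 and 1.34. Tlr3, the receptor for double-stranded RNA, rose by 1.16, and Ly96, the lipid-binding partner of TLR4, by 1.15. Tlr7 and Tlr8 did not pass (0.09 and 0.08).

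**Figure D4:**
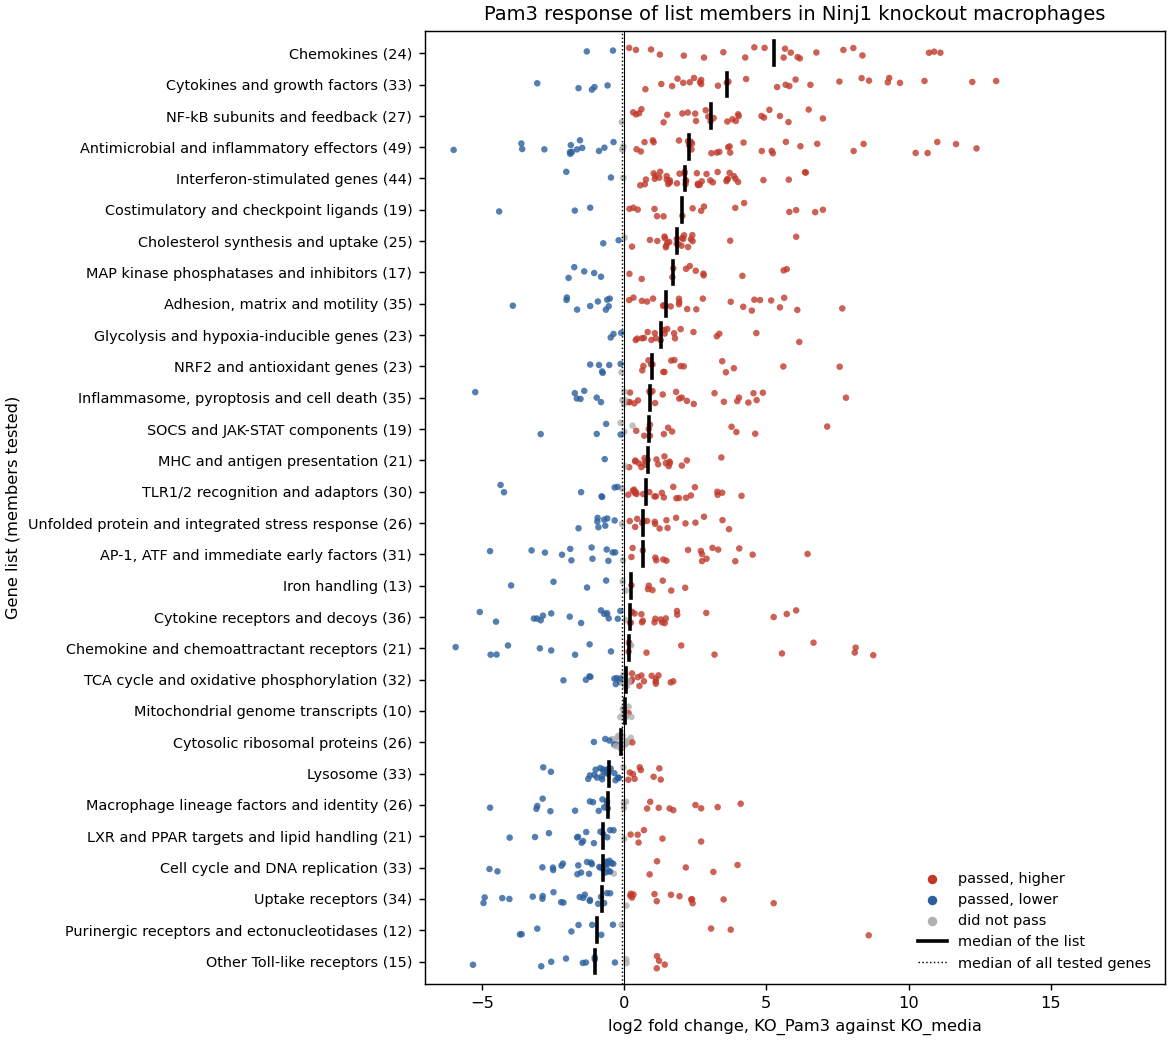
Log2 fold change of KO_Pam3 against KO_media (horizontal axis) for the tested members of 30 gene lists (vertical axis, with the number tested), ordered by the median of the list, which is the black bar. Red points passed upward, blue points downward and grey points did not pass, and the dotted line is the median of all tested genes at -0.07. Chemokines stand at the top with a median of 5.27 and other Toll-like receptors at the bottom with -1.03.

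NF-kB genes rose almost as a block. Of 27 subunits, inhibitors and feedback genes 26 rose, 20 of them at least 4-fold, and the deubiquitinase gene Otulin did not pass (-0.08). The list had a median of 3.04. Among the DNA-binding subunits Nfkb2 rose by 4.03, Nfkb1 by 3.04, Relb by 2.87, Rel by 2.24 and Rela by 1.52. The inhibitors that hold NF-kB in the cytoplasm rose more than Rela in fitted size, with Nfkbia at 51.9 to 58.9 CPM (median 55.7) in KO_media to 1496 to 1662 CPM (median 1568) in KO_Pam3 (log2 fold change 4.83, SE 0.0508, adjusted p = 2.82e-31), Nfkbie at 3.93 and Nfkbib at 2.96. Nfkbiz, a nuclear IkB that is needed for Il6 transcription, rose from 12.1 ± 1.47 to 1091 ± 21.1 CPM. Tnfaip3 (A20), which edits ubiquitin chains to shut the pathway down, rose from 48.5 ± 1.43 to 1672 ± 44.7 CPM, and its binding partner Tnip3 by 5.48. The RNases Zc3h12a and Zc3h12c, which degrade cytokine mRNA, rose by 4.01 and 4.92. Cd40, a receptor for T-cell help, rose from 11.9 ± 2.98 to 1513 ± 59.3 CPM and the adaptor Traf1 by 5.78.

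Of 31 immediate early and AP-1 factors 18 rose and 12 fell, 58.1% and 38.7% beside 40.2% and 44.8% of all tested genes. The basic leucine zipper factors Batf and Batf2 rose by 4.52 and 3.91, Junb by 2.90, Cebpd by 4.05 and the small Maf factor Maff from 1.36 ± 0.144 to 119 ± 3.29 CPM. The classic immediate early genes Fos and Jun were lower, by 1.11 and 1.14, and Egr3, Klf2 and Fosb fell by 1.85, 2.18 and 2.78. Cebpa, a myeloid lineage factor, fell from 169 ± 14 to 6.41 ± 0.59 CPM. Atf3, a stress-induced repressor, did not pass, with 433 ± 18.4 CPM in KO_media and 421 ± 12.9 CPM in KO_Pam3. Brakes on MAP kinases rose in 12 of 17 cases and fell in 5. Dusp2, a nuclear phosphatase of ERK, rose by 5.72, Dusp16, which acts on JNK, by 4.16, Dusp1 by 2.79 and the ERK inhibitor Spry1 by 5.61, while the ERK phosphatases Dusp6 and Dusp7 fell by 1.75 and 1.95.

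Of 19 SOCS and JAK-STAT genes 12 rose and 4 fell. The SOCS inhibitors of cytokine signalling divided, with 4 of 8 higher and 2 lower. Socs3, which blocks signalling of the interleukin 6 receptor, ran from 8.92 to 12.4 CPM (median 10.2) in KO_media to 1427 to 1539 CPM (median 1485) in KO_Pam3 (log2 fold change 7.14, SE 0.0797, adjusted p = 6.5e-31). Socs1 rose by 4.61, Cish by 3.95 and the kinase gene Jak2 by 3.78. Stat5a and Stat2 rose by 1.69 and 1.55. Socs6 fell by 2.93 and Stat6, which mediates the response to interleukin 4, by 0.96.

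Cytokines were among the strongest groups. Of 33 tested cytokines and growth factors 28 rose and 5 fell, with a median of 3.61. In the IL-1 family Il1a, an alarmin, rose from 0.813 ± 0.312 to 675 ± 35.1 CPM, Il18 from 5.8 ± 0.672 to 73.7 ± 3.24 CPM and Il1f9 (IL-36 gamma) by 3.30, next to Il1b described above. Il12b, the p40 chain shared by interleukins 12 and 23, rose from 0.178 ± 0.118 to 116 ± 8.56 CPM. Il12a, its partner in interleukin 12, had 10 reads in KO_media and 3161 in KO_Pam3, a ratio of 423 (exact 95% interval 230 to 883). Il23a, its partner in interleukin 23, had 1 and 71 reads, a ratio of 95 (exact 95% interval 16.5 to 3806). Il27 rose by 8.35 and its partner chain Ebi3 by 3.61. The anti-inflammatory cytokine gene Il10 rose by a smaller 1.69. Tnf, the principal TNF-superfamily cytokine, ran from 9.56 to 13.5 CPM (median 10.3) in KO_media to 6390 to 6933 CPM (median 6472) in KO_Pam3 (log2 fold change 9.27, SE 0.0953, adjusted p = 2.14e-31). The costimulatory ligands Tnfsf15 and Tnfsf9 rose by 6.03 and 5.81. Of the colony-stimulating factors Csf3, the granulocyte factor, had 7 reads in KO_media and 8864 in KO_Pam3, a ratio of 1695 (exact 95% interval 822 to 4217), and Csf1 rose by 2.67. Il19 had 0 reads in KO_media and 60 in KO_Pam3, at least 26.8-fold higher against a floor of 3 counts over the group. Ifnb1, the interferon beta gene, had 3 and 159 reads, a ratio of 70.9 (exact 95% interval 23.8 to 348). The members that fell were growth factors: the angiogenic factor Vegfa from 75.6 ± 2.26 to 9.12 ± 0.635 CPM, the dendritic cell factor Flt3l by 1.60, Igf1 by 1.13, Pdgfb by 1.04 and Hbegf by 0.58.

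Receptors for these cytokines split, with 19 of 36 higher (52.8% beside 40.2% of all tested genes) and 15 lower (41.7% beside 44.8%). Their median was 0.22, and scaling by total reads gave 14 higher and 21 lower. The interleukin 1 receptor antagonist Il1rn rose from 18.5 ± 1.1 to 709 ± 41.3 CPM. Tnfrsf1b, the second TNF receptor, rose from 828 ± 20.5 to 6129 ± 147 CPM and Il2ra by 5.72. Both chains of the interleukin 6 receptor fell, Il6ra from 268 ± 9.08 to 29.8 ± 1.69 CPM and Il6st from 301 ± 18.9 to 36.3 ± 3.06 CPM, and the interleukin 7 receptor gene Il7r fell by 2.85. Csf1r, the receptor for the growth factor on which macrophages depend, fell from 3247 ± 121 to 2003 ± 63.3 CPM. The 3 TGF-beta receptor family genes Tgfbr2, Tgfbr1 and Acvrl1 fell by 1.51, 0.81 and 0.54.

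Chemokines had the highest median of the lists, 5.27, with 22 of 24 tested members higher and 2 lower, beside 40.2% and 44.8% of all tested genes. Among CC ligands, Ccl3 ran from 54.5 to 62.8 CPM (median 58.7) in KO_media to 6075 to 6826 CPM (median 6407) in KO_Pam3 (log2 fold change 6.76, SE 0.0714, adjusted p = 2.89e-31). Ccl4 rose from 36.1 ± 4.7 to 2477 ± 129 CPM and Ccl5 from 8.64 ± 2.13 to 2296 ± 115 CPM. Ccl2 and Ccl7, which attract monocytes, rose by 4.94 and 6.18, and Ccl22, which attracts T cells through CCR4, by 7.71. The other CCR4 ligand, Ccl17, had 0 reads in KO_media and 215 in KO_Pam3, at least 95.9-fold higher. Ccl9 was high in media and rose further, from 510 ± 25.7 to 5715 ± 210 CPM. Cxcl10, a ligand of CXCR3, rose from 11.1 ± 3.53 to 640 ± 49.9 CPM and Cxcl9 by 5.66. The homeostatic ligands Cxcl12 and Cxcl14 fell by 0.39 and 1.31, the first within the shift between scalings and not past the test in 6 of the fits that leave out 1 library.

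Chemoattractant receptors moved in both directions, 11 of 21 higher and 9 lower (52.4% and 42.9%, beside 40.2% and 44.8% of all tested genes). With scaling by total reads 8 were higher and 12 lower. Of 11 receptors for chemoattractants other than chemokines 7 rose and 3 fell. Fpr2 and Fpr1, which bind formyl peptides, rose from 0.513 ± 0.382 to 220 ± 8.48 CPM and from 0.74 ± 0.452 to 203 ± 14.3 CPM, the fatty acid receptor Gpr84 by 8.14, the niacin receptor Hcar2 by 6.66 and the complement receptor C5ar1 by 2.01. The 3 that fell were Gpr183, which follows oxysterols, by 4.48 and the complement receptors C5ar2 and C3ar1 by 2.56 and 0.46, the last within the shift between scalings. Of 10 tested chemokine receptors 4 rose and 6 fell. Cxcr4, the receptor for CXCL12, ran from 239 to 261 CPM (median 253) in KO_media to 3.56 to 5.45 CPM (median 3.98) in KO_Pam3 (log2 fold change -5.92, SE 0.0806, adjusted p = 3.33e-29), and Ccr2, the receptor for CCL2, from 194 to 256 CPM (median 223) in KO_media to 7.94 to 9.74 CPM (median 8.68) in KO_Pam3 (log2 fold change -4.69, SE 0.0814, adjusted p = 6.14e-27). Cx3cr1 fell by 1.72. Ccr7, the lymph node homing receptor, rose from 1.07 ± 0.103 to 9.72 ± 0.924 CPM.

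Interferon-stimulated genes rose in 41 of 44 cases, 25 of them at least 4-fold, with a median of 2.16. The effectors Ifi205 and Isg15 rose by 6.39 and 4.01, and Rsad2 (viperin) from 128 ± 51.5 to 1605 ± 88.7 CPM. The guanylate-binding proteins Gbp5 and Gbp2, which coat intracellular microbes, rose from 11.8 ± 4.1 to 967 ± 46.3 CPM and from 46.6 ± 14.4 to 1386 ± 45.8 CPM. The RNA sensors Ifih1 and Ddx58 rose by 2.59 and 2.16 and the nucleic acid sensor Zbp1 by 2.60. Irf1 rose by 2.90 and Irf7 by 1.5. Irf8 and Irf5 fell by 2.03 and 0.46, the latter within the shift between scalings, and Irf3 did not pass (-0.02). Of 35 promoters of the list 20 held the core GAAANNGAA, against 7.65% of all tested genes with a promoter, and 6 held GGNNTTTCC. The level of these genes in media was not uniform. Their mean log2(CPM + 0.1) was 6.44 in KO_media replicate 1 and 5.44 to 5.77 in the other 5 replicates, against 8.05 to 8.17 in KO_Pam3. Closely related members such as Ifit3, Ifi205 and the guanylate-binding proteins are uncertain, because reads that fit several genes are absent from unique counts.

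Several inflammasome sensors and pore-forming executors rose, and the adaptor did not pass the test. Of 35 genes of the inflammasome, pyroptosis and cell death 24 rose and 7 fell (19 and 15 with scaling by total reads), with a median of 0.92. Nlrp3 ran from 71.6 to 79.3 CPM (median 75.2) in KO_media to 1734 to 1803 CPM (median 1759) in KO_Pam3 (log2 fold change 4.55, SE 0.0607, adjusted p = 2.37e-29). Mefv (pyrin) and the peptidoglycan sensor Nod2 rose by 4.66 and 4.37, whereas Nlrp1b fell from 45.8 ± 3.43 to 1.22 ± 0.0621 CPM and Naip5, which detects flagellin, by 1.40. Casp4, the lipopolysaccharide-sensing caspase, rose from 14.1 ± 1.92 to 161 ± 7.91 CPM and Casp1 from 67 ± 4.03 to 257 ± 12.7 CPM. Pycard (ASC), the adaptor between sensor and caspase, stood at 78.2 ± 1.49 CPM in KO_media and 78.1 ± 5.92 CPM in KO_Pam3 and did not pass. The pore-forming Gsdmd rose from 78.8 ± 5.24 to 280 ± 7.25 CPM and the necroptosis executor Mlkl by 2.03, and Gsdme fell by 1.66.

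Reads of the targeted gene remained in the knockout libraries. Ninj1 ran from 151 to 179 CPM (median 167) in KO_media to 409 to 479 CPM (median 420) in KO_Pam3 (log2 fold change 1.36, SE 0.0883, adjusted p = 5.7e-14). Reads were counted over the entire gene model, and which part was deleted is not stated, so they say nothing about protein. In wild type Ninj1 stood at 289 to 325 CPM in media. After Pam3 it stood at 1145 CPM in replicate 5 and 646 to 810 CPM in the other 5 libraries, all above the knockout libraries of the same treatment. The response of wild type was 1.40, and the difference of responses did not pass (-0.04, SE 0.123, adjusted p = 0.922). Of the 12 BCL2-family genes, which hold inhibitors and promoters of apoptosis, 8 rose, 2 fell and 2 did not pass. The pro-apoptotic Bax and Bak1 rose by 1.0 and 0.89, and the 2 that fell were the pro-apoptotic Bcl2l11 (BIM) and Bbc3 (PUMA), by 1.53 and 1.73. Cflar (c-FLIP), which restrains caspase 8, rose from 84 ± 5.72 to 1382 ± 61.4 CPM. The death receptor gene Fas rose by 3.98. Ripk1 and Bcl2 did not pass (0.01 and 0.03). The near-identical Bcl2a1 genes a, b and d also rose but share most of their reads, and their levels are uncertain.

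Antimicrobial and inflammatory effectors rose in 32 of 49 cases and fell in 14. Around nitric oxide and arginine, the transporter Slc7a2 rose from 6.71 ± 0.97 to 252 ± 27.1 CPM, Gch1, which makes the cofactor tetrahydrobiopterin, by 3.71 and Ass1 by 3.26. Arg1, the arginase of alternative activation, was low in both groups and fell from 0.44 ± 0.126 to 0.16 ± 0.0961 CPM. The cyclooxygenases of prostaglandin synthesis moved in opposite directions. Ptgs2 and Ptges, the inducible prostaglandin E synthase, rose (Ptges from 1.22 ± 0.238 to 328 ± 24.9 CPM), and Ptgs1, the constitutive cyclooxygenase, fell from 38.7 ± 2.25 to 3.16 ± 0.379 CPM. Hpgd, which degrades prostaglandins, fell from 46.4 ± 5.44 to 0.733 ± 0.0932 CPM and the thromboxane synthase Tbxas1 by 2.80. The leukotriene genes Alox5ap, Lta4h and Ltc4s fell by 1.55, 1.65 and 1.90. The NADPH oxidase subunit Cybb rose from 1153 ± 81.2 to 5864 ± 250 CPM. Among acute-phase and complement genes Saa3 ran from 1.62 to 21.5 CPM (median 2.25) in KO_media to 6287 to 7257 CPM (median 6782) in KO_Pam3 (log2 fold change 10.25, SE 0.548, adjusted p = 7.7e-16), and KO_media replicate 1 held the highest media value. C3, the central complement protein, rose from 48.6 ± 8.14 to 1395 ± 99 CPM, and the complement C1q chains C1qa and C1qb did not pass (-0.06 and -0.02). Clec4e (Mincle), which binds mycobacterial glycolipid, rose from 17.2 ± 4.41 to 5906 ± 281 CPM, whereas Clec7a (dectin 1), which binds fungal glucan, fell from 316 ± 10.4 to 86.5 ± 5.03 CPM.

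Glucose transport and glycolysis rose, with 20 of 23 tested genes higher and 3 lower and a median of 1.29. Slc2a6 and Slc2a1, which encode glucose transporters, rose from 55.9 ± 6.84 to 1405 ± 58.4 CPM and from 26 ± 1.13 to 248 ± 13 CPM, and the lactate exporter Slc16a3 by 3.35. The enzymes Pfkl and Hk2 rose by 2.44 and 1.79, and Hif1a, the hypoxia-inducible factor, by 1.76. Mitochondrial metabolism had no common direction. Of 32 TCA cycle and oxidative phosphorylation genes 14 rose and 9 fell, 43.8% and 28.1% beside 40.2% and 44.8% of all tested genes. With scaling by total reads 8 rose and 20 fell. Idh2 and Idh1, the NADP-dependent isocitrate dehydrogenases, fell by 2.13 and 1.34, the fumarase gene Fh1 by 1.22 and Mdh1 by 1.18, whereas Idh3a and the citrate synthase gene Cs rose by 1.12 and 0.97. The succinate dehydrogenase subunits Sdha, Sdhc and Sdhd did not pass (-0.02, 0.07 and -0.06). Of 10 transcripts of the mitochondrial genome 1 rose and 0 fell by edgeR, 0 rose and 9 fell with scaling by total reads, and 2 rose with DESeq2.

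Cholesterol synthesis rose, in 16 of 17 enzyme genes. Of 25 tested genes of cholesterol synthesis and uptake 22 rose and 2 fell, with a median of 1.85. The sterol demethylase Cyp51 rose from 71.4 ± 6.4 to 380 ± 14.6 CPM, the squalene epoxidase Sqle by 1.85 and the activator of the pathway, Srebf2, by 1.47. Hsd17b7 rose most among synthesis enzymes (3.73) and Dhcr7, the last reductase of the pathway, fell by 0.73. Ch25h, which makes 25-hydroxycholesterol, rose from 0.335 ± 0.0922 to 22.2 ± 1.44 CPM. In the list of LXR and PPAR targets and lipases 6 of 21 rose and 14 fell, and 3 and 16 with scaling by total reads. Of the 11 LXR targets 4 rose and 6 fell, of the 7 PPAR targets 2 and 5, and all 3 lipases fell. Nr1h3 (LXR alpha) rose by 2.71, but the cholesterol exporter Abcg1 fell by 1.62 and Abca1 did not pass (0.01). Pparg fell from 64.3 ± 3.06 to 7.32 ± 0.798 CPM, the lipid droplet gene Plin2 by 1.44 and the lysosomal acid lipase Lipa from 2108 ± 59 to 750 ± 24.8 CPM.

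Genes of iron, redox and protein stress were mixed. Slc40a1 (ferroportin), the iron exporter, ran from 181 to 225 CPM (median 211) in KO_media to 12.3 to 15.1 CPM (median 13.2) in KO_Pam3 (log2 fold change -3.97, SE 0.0588, adjusted p = 1.98e-28), and the importer Slc11a2 rose by 2.15 and Hmox1, which degrades heme, by 1.66. Of 13 tested iron genes 7 rose and 4 fell (53.8% and 30.8%, beside 40.2% and 44.8% of all tested genes). With scaling by total reads 6 rose and 7 fell. In the NRF2 and antioxidant list 16 of 23 rose and 6 fell, with Slc7a11, the cystine transporter, at 1.02 ± 0.22 to 195 ± 33 CPM, the mitochondrial superoxide dismutase Sod2 at 45.7 ± 2.99 to 2224 ± 73 CPM and Txnrd1 at 3.58 on the log2 scale, against falls of Gpx1 (-1.19) and Cat (-0.88). In the unfolded protein and integrated stress response 17 of 26 rose and 8 fell. Ppp1r15a, which lets translation resume after stress, rose by 3.69, the folate enzyme Mthfd2 by 3.46 and the chaperone Hspa5 by 1.08, while the sensors Atf6 and Ern1 fell by 0.94 and 0.93.

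The largest falls were in genes of varied function. Abcd2, which encodes a peroxisomal fatty acid transporter, ran from 28 to 33.9 CPM (median 32) in KO_media to 0.0653 to 0.244 CPM (median 0.154) in KO_Pam3 (log2 fold change -7.66, SE 0.133, adjusted p = 6.24e-27). Fam214a ran from 81.7 to 87.8 CPM (median 83.8) in KO_media to 0.293 to 0.693 CPM (median 0.418) in KO_Pam3 (log2 fold change -7.55, SE 0.101, adjusted p = 2.37e-29). Rasgrp3, an activator of RAS and RAP GTPases, ran from 138 to 151 CPM (median 143) in KO_media to 0.718 to 1.14 CPM (median 0.927) in KO_Pam3 (log2 fold change -7.25, SE 0.12, adjusted p = 2.06e-27). Slco2b1, an organic anion transporter, fell by 7.01 and the cannabinoid receptor Cnr2 by 6.91. In each of these 5 genes every KO_Pam3 library lay below every KO_media library, and KO_Pam3 held under 1.5 CPM. Zbtb16 (PLZF), a transcriptional repressor, stood at 2.35 CPM in KO_media and 0.0101 CPM in KO_Pam3. The T-cell receptor segments Trav13n-4 and Trav14n-3 had 147 and 133 reads in KO_media and 0 in KO_Pam3, at least 36.6-fold and 33.1-fold lower. Such segments have near-identical copies, so their counts are uncertain. By deposited RPKM the largest falls in level were in abundant genes of the resting macrophage: Selenop, which encodes the selenium carrier selenoprotein P, (3874 ± 93.5 to 1340 ± 57.6 RPKM), Psap (6046 ± 148 to 3742 ± 183 RPKM), Ctsd (4199 ± 201 to 2403 ± 133 RPKM), Ctsb (4502 ± 116 to 3127 ± 123 RPKM), Lgals3 (2047 ± 123 to 699 ± 48.4 RPKM) and Apoe (3325 ± 286 to 2260 ± 201 RPKM). These fell by less than 4-fold each.

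Lysosomal genes fell in 23 of 33 cases and rose in 9, with a median of -0.53. The proteases Ctsd and Ctsb fell by 0.84 and 0.56, the hydrolase Gla by 0.95, the cholesterol transporter Npc1 by 1.20 and the membrane protein Gpnmb by 1.0. Ctsz rose by 1.24. Among the MiT/TFE factors, which drive lysosomal genes, Tfeb fell from 80.3 ± 3.98 to 13.5 ± 1.07 CPM while Mitf and Tfe3 rose by 1.29 and 0.59. Of the proton pump subunits Atp6v0d2 fell by 2.84 and Atp6v1h rose by 1.04. With scaling by total reads 28 lysosomal genes fell and 4 rose.

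Of 34 uptake receptors 13 rose and 20 fell, 38.2% and 58.8% beside 40.2% and 44.8% of all tested genes, and 9 and 25 with scaling by total reads. For apoptotic cells, the receptor Mertk ran from 157 to 161 CPM (median 159) in KO_media to 19.3 to 24.7 CPM (median 21.8) in KO_Pam3 (log2 fold change -2.86, SE 0.0643, adjusted p = 2.06e-24), and its bridging ligand Gas6 from 1073 to 1215 CPM (median 1159) in KO_media to 111 to 139 CPM (median 125) in KO_Pam3 (log2 fold change -3.21, SE 0.0562, adjusted p = 7.18e-27). Stab1 and Itgb5, which bind phosphatidylserine directly or through bridging proteins, fell by 1.56 and 2.87. The mannose receptor Mrc1 fell from 636 ± 12.6 to 145 ± 7.81 CPM, the lectin Clec10a from 65.4 ± 3.41 to 2.12 ± 0.379 CPM, and the CD300 receptors Cd300lb, Cd300lf and Cd300a by 4.28, 4.90 and 4.03. Fcgr2b, the inhibitory Fc receptor, rose from 200 ± 6.1 to 1065 ± 29 CPM while Fcgr3 fell by 0.91. Trem1, which amplifies inflammation, rose from 0.293 ± 0.0945 to 3.34 ± 0.499 CPM and Trem2, a lipid receptor, fell from 1133 ± 62.3 to 434 ± 30.5 CPM.

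Macrophage identity was checked on its defining markers. Lyz2, Adgre1, Csf1r, Cd68 and Itgam were present in all 12 knockout libraries, with means of 18872, 1778, 3247, 1903 and 190 CPM in KO_media. Of 26 lineage factors and identity genes 9 rose and 14 fell, 34.6% and 53.8% beside 40.2% and 44.8% of all tested genes. Of the 14 identity genes 4 rose and 8 fell, by up to 3.05, and of the 12 transcription factors 5 rose and 6 fell, by up to 4.71. Among the defining markers Csf1r and Cd68 fell by 0.70 and 0.60 and Itgam rose by 0.81. Adgre1 (F4/80) rose from 1778 ± 40.3 to 5900 ± 271 CPM and the lineage factor Spi1 (PU.1) by 1.60. The transcription factor gene Maf did not pass (-0.01). Tfec rose from 14.9 ± 0.749 to 256 ± 12.7 CPM, and Lyz2 and Lyz1 did not pass (0.07 and 0.00). Among receptors and enzymes for extracellular nucleotides 3 of 12 rose and 8 fell. The adenosine receptor Adora2a ran from 0.647 to 1.13 CPM (median 0.716) in KO_media to 296 to 316 CPM (median 307) in KO_Pam3 (log2 fold change 8.60, SE 0.102, adjusted p = 1.82e-30), while P2rx7, the ATP-gated channel upstream of NLRP3, ran from 139 to 151 CPM (median 145) in KO_media to 11.4 to 12.7 CPM (median 11.9) in KO_Pam3 (log2 fold change -3.60, SE 0.0485, adjusted p = 2.8e-29). Entpd1 (CD39), which hydrolyses ATP, fell from 311 ± 9.67 to 24.6 ± 2.25 CPM.

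Antigen presentation and contact with other cells rose. Of 21 genes of MHC and antigen presentation 19 rose and 1 fell, with a median of 0.83. With scaling by total reads 14 rose and 3 fell. The class I and class II genes had medians of 0.74 and 0.53. The proteasome activator Psme2 rose by 3.42, the peptide transporter genes Tap1 and Tap2 by 2.03 and 2.21, and the class II chain H2-Ab1 by 1.20, while the class II regulator Ciita did not pass (0.04). Histocompatibility genes are closely related and their unique counts uncertain. Costimulatory and checkpoint ligands rose in 16 of 19 cases. Cd274 (PD-L1) rose from 76.1 ± 10.3 to 1144 ± 47.5 CPM, the inducible costimulator ligand Icosl by 4.22 and Slamf1 from 0.402 ± 0.0829 to 42.7 ± 4.04 CPM. The log2 fold changes of Cd86 and Cd80 were 0.48 and 0.33, within the shift between scalings. Havcr2 (TIM-3) fell from 15 ± 0.367 to 0.713 ± 0.171 CPM.

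Adhesion and matrix genes rose in 25 of 35 cases and fell in 10. Icam1, a ligand of leukocyte integrins, rose from 87.3 ± 6.02 to 2397 ± 57 CPM, the integrin Itgal from 37.9 ± 4.66 to 1364 ± 98.1 CPM and Itga5 by 3.75, while the laminin-binding Itga6 fell from 193 ± 14.6 to 12.8 ± 1.12 CPM. The membrane collagenase Mmp14 ran from 5.13 to 8.61 CPM (median 6.15) in KO_media to 1292 to 1393 CPM (median 1354) in KO_Pam3 (log2 fold change 7.67, SE 0.0921, adjusted p = 2.59e-30) and Mmp13 rose by 6.09. The actin-bundling Fscn1 rose by 5.63 and Marcksl1 by 5.48. Adam8 and Timp2 fell by 2.02 and 1.65.

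Cell cycle genes fell in 27 of 33 cases and rose in 5. The replication helicase genes Mcm2, Mcm7 and Mcm5 fell by 2.50, 2.49 and 1.64, E2f2 from 12.4 ± 0.555 to 0.462 ± 0.155 CPM and the G1 cyclin Ccnd1 from 71.7 ± 10.8 to 3.26 ± 0.52 CPM. Cdkn1a (p21), a cell cycle inhibitor, rose from 118 ± 11.8 to 1877 ± 85.7 CPM and the other G1 cyclin Ccnd2 by 3.14. Mki67, a proliferation marker, rose from 31.3 ± 1.89 to 141 ± 10.2 CPM, against the direction of most of the list. Of 26 tested ribosomal protein genes 1 rose and 5 fell. Leaving out single libraries gave 1 to 3 higher and 4 to 10 lower, and scaling by total reads gave 0 higher and 24 lower. Many ribosomal genes have processed copies that take up shared reads.

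The response was close to that of wild-type macrophages. Across 14435 genes the log2 fold changes of both genotypes had a Pearson r of 0.986, which is across genes and not over independent replicates. In both genotypes 11537 genes passed in the same direction and 5 in opposite directions. The difference of the responses, knockout minus wild type, passed for 110 genes (0.762%), 25 with a higher value in knockout (0.173%) and 85 with a lower value (0.589%). At an unadjusted p under 0.05 there were 1768. Of the 1051 genes that rose at least 4-fold in knockout cells, 6 differed upward and 30 downward, and of the 1598 that fell at least 4-fold 3 differed upward and 14 downward. These counts depended on single libraries. WT_Pam3 replicate 5 stood apart from the other 5 of its group, with a chi-square per gene of 116 to 142 against each of them, where pairs among the others gave 2.55 to 7.67. Without WT_Pam3 replicate 5 they were 102 higher and 442 lower, and without WT_media replicate 3 or 5 they were 8 and 20.

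Interferon-stimulated genes made up part of the lower responses. For 12 of the 44 the response was lower in knockout cells, among them Ifit1 (3.92 against 4.88 in wild type, difference -0.96, SE 0.219, adjusted p = 0.0344), Ifit3 (1.08 against 2.26) and Irf7 (1.5 against 2.34), and the difference was below 0 for all 44, with a median of -0.66 against -0.02 over all tested genes. The levels behind it were 5.12 to 5.38 in WT_media and 5.44 to 6.44 in KO_media on the mean log2(CPM + 0.1) scale, and 8.11 to 8.26 in WT_Pam3 and 8.05 to 8.17 in KO_Pam3. Media levels of the genotypes thus did not overlap, and levels after Pam3 did. Without KO_media replicate 1 the median difference was -0.43 with 24 of 44 lower, and over all single omissions the count ran from 1 (without WT_media replicate 3 or 5) to 36 (without WT_Pam3 replicate 5). Ifit3b (0.26, adjusted p = 0.132 in knockout cells), Tgtp2 and Ifi206 were in the same group by the size of the difference, and their unique counts are uncertain.

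Outside that list, Calhm6, which encodes a large-pore channel, rose by 2.79 in knockout and 3.62 in wild type (difference -0.83, SE 0.132, adjusted p = 0.00904). Cd101, an inhibitory surface protein, fell by 3.26 and 1.91 (difference -1.35, adjusted p = 0.0382). Differences in the other direction were in Il1a (9.70 against 8.97, difference 0.73, SE 0.177, adjusted p = 0.0471), Il20rb (4.05 against 3.53), the histone demethylase gene Kdm6b (1.58 against 1.10) and, with smaller falls in knockout, the deiodinase gene Dio2 (-2.28 against -3.07) and Gpr155 (-5.74 against -6.50). Tlr2 itself differed slightly, with 3.28 against 3.52 (difference -0.24, SE 0.0575, adjusted p = 0.0396). For the 12 largest rises no difference passed, but all 12 were below 0, from -1.22 for Il6 to -0.26 for Nos2. Of the 1051 genes that rose at least 4-fold in knockout cells, 637 (60.6%) had a response nearer 0 there than in wild type. All 12 had a higher mean CPM in KO_media than in WT_media, such as Il1b at 1.06 and 0.561. After Pam3 their levels went both ways. Il1b stood at 5071 CPM in KO_Pam3 and 4385 in WT_Pam3, Il6 at 303 and 301, and Cxcl2 at 3013 and 3322. Cxcl2 came nearest the threshold (-0.86, SE 0.214, adjusted p = 0.0538). For Il6 the SE was 0.752 (adjusted p = 0.531), where KO_media held 8 reads. KO_media replicate 1 held an outlying highest value for Shisa3, Il1b, Nos2, Cxcl2, Acod1 and Marco among these 12 genes, for Shisa3 from 1 read. Of the differences named here, those of Calhm6 and Dio2 passed in all 24 fits that leave out 1 library. Gpr155 and Il20rb missed the threshold in 1 such fit, Ifit3 and Irf7 in 3, Kdm6b in 4, Tgtp2 in 5, Ifit1 in 12, Ifit3b and Ifi206 in 16, Cd101 in 17, Tlr2 in 19 and Il1a in 20.

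**Figure D5:**
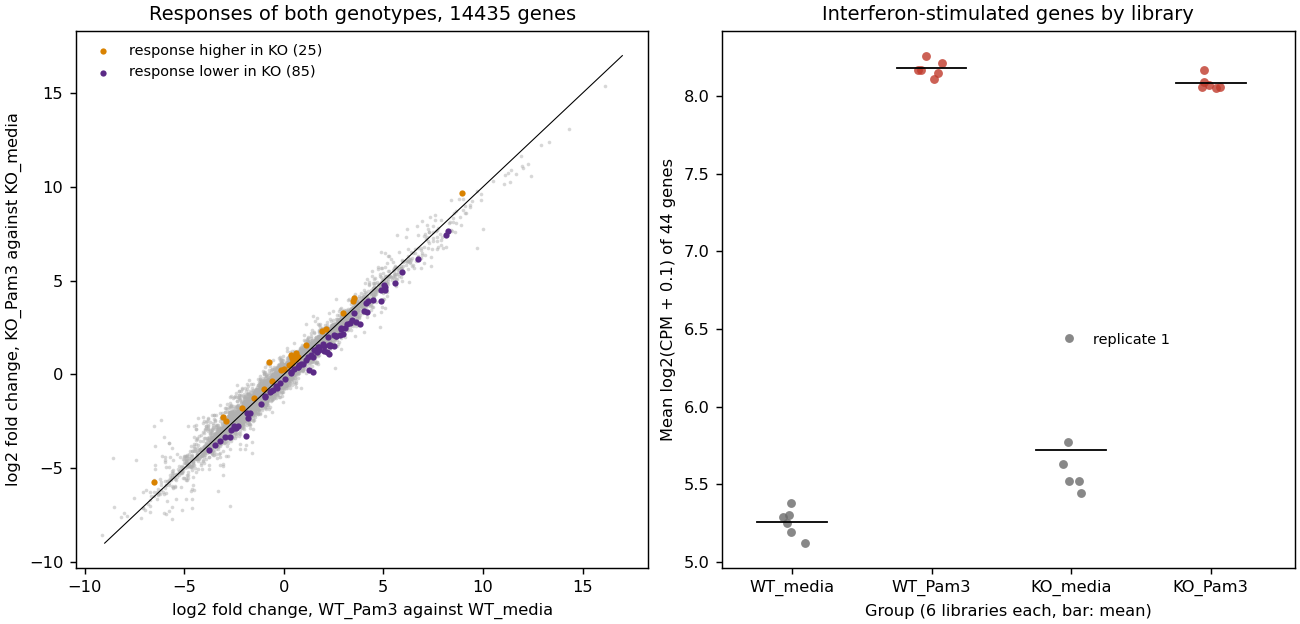
Left, log2 fold changes of Pam3 against media in wild-type (horizontal axis) and knockout macrophages (vertical axis) for 14435 genes, with the line of equal responses, where orange and purple points are the 25 and 85 genes whose response passed as higher or lower in knockout. Right, mean log2(CPM + 0.1) of 44 interferon-stimulated genes in each of the 24 libraries by group, with the group mean as a bar. KO_media replicate 1 stands at 6.44, above the other media libraries at 5.12 to 5.77.

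Markers of other cells moved in part with the stimulation. Summed over 14 granulocyte markers the level was 254 to 279 CPM in KO_media and 718 to 820 CPM in KO_Pam3. Of the 13 tested, 3 rose, Lcn2, Csf3r and Camp, and 9 fell. Most of the sum after Pam3 was Csf3r, the receptor for granulocyte colony-stimulating factor, which rose from 159 ± 6.84 to 578 ± 28.7 CPM. The granule genes Ltf, Mpo and Elane fell by 3.50, 3.0 and 2.82. Of 10 tested dendritic cell markers 4 rose and 3 fell, and 4 and 5 with scaling by total reads (28.7 to 29.9 CPM summed in KO_media, 238 to 273 CPM in KO_Pam3), and within that sum Fscn1 rose from 3.89 ± 0.803 to 194 ± 11.7 CPM. The defining markers Flt3 and Zbtb46 stood at 0.51 and 0.66 CPM after Pam3. Lymphocyte markers summed to 193 to 217 CPM in KO_media and 33.1 to 38.3 CPM in KO_Pam3, with Ighm from 197 ± 7.96 to 29 ± 1.36 CPM, with 3 of 6 tested higher and 3 lower (0 and 3 with scaling by total reads), and no T-cell marker of the CD3 complex passed the filter on low counts. Mast cell and basophil markers summed to 9.61 to 11.9 and 12.4 to 14.8 CPM, with 1 of 3 tested higher and 1 lower, and erythroid and megakaryocyte markers to 3.01 to 4.58 and 5.54 to 7.22 CPM, with 1 of 3 higher and Car1 at 0 counts. Stromal and endothelial markers summed to 86.6 to 148 CPM in KO_media and 210 to 275 CPM in KO_Pam3. Of the 13 tested 5 rose and 3 fell (4 and 8 with scaling by total reads). Pdgfrb rose from 2.36 ± 0.622 to 98.1 ± 8.88 CPM and the collagen gene Col1a2 fell from 21 ± 6.24 to 15 ± 2.84 CPM, the latter within the shift between scalings. The part of other cells in the results was not tested, and in bulk RNA fewer cells of a type and less RNA per cell cannot be told apart.

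Some genes had reads in 1 group alone. With 0 reads in all 6 KO_media libraries and a mean of at least 20 in KO_Pam3 there were 11, among them Ccl17, the calcitonin receptor gene Calcr (at least 56.2-fold higher), Macc1, a regulator of MET (at least 123-fold), Tmigd1 (at least 68.7-fold), Tex12 (at least 58.9-fold) and the vomeronasal receptor gene Vmn2r90 (at least 252-fold). The remaining 5 are predicted or unnamed gene models. The reverse pattern held for 6, which are the segments Trav13n-4 and Trav14n-3 and 4 predicted models. Folds are against a floor of 3 counts over the group, and cover counting error only.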

How the data were processed

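The authors aligned reads with GSNAP to GRCm38, per the submitters' processing notes; the sources used here give no versions. The deposited table of each library holds counts of uniquely aligning reads per gene model, per the file headers, beside RPKM that the authors adjusted by a size factor. GENCODE M21 named 52403 of 52636 models; the other 233 held 0.0196% of reads. Counts of all 24 libraries (4 groups of 6, from the labels) were fitted with edgeR 4.0.16 (R 4.3.3; TMM, low-count filter, quasi-likelihood test, Benjamini-Hochberg over 14435 genes, common biological variation 8.21%). Limma 3.58.1 and DESeq2 1.42.0, other scalings and filters and omitted libraries served as alternatives. On simulated counts over 14118 genes, 80% of 1.5-fold and 93.9% of 2-fold changes in KO_Pam3 against KO_media were recovered. The simulation left 13921 genes unchanged and gave every gene the same spread. It therefore does not cover shifts between scalings, gene-wise spread or outlying libraries. Intervals are exact, at the 95% level, and cover counting error only. The gene lists, members and tests were chosen with earlier results of these data known; 43 listed genes had too few counts to test. Named genes are the 12 largest separated rises and falls with at least 20 counts, the 10 largest RPKM changes each way, the 8 largest genotype differences each way, genes with 0 counts in 1 group, fixed pathway genes and list members; some of these genes are not reported here.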

Additional observations from a re-analysis of the deposited data

Results flagged for a closer look

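Single libraries lay far from the other 5 of their group in 68 of 676 gene and group pairs (10.1%). The measure was the gap to the nearest library over the range, which passes in about 1 in 20 of independent, normally distributed pairs. In 4 of them (Shisa3, Has1 and Il23a in KO_media and Zbtb16 in KO_Pam3) a single library held all the reads, so that the gap equals the range whatever the count, and without such pairs there were 64 of 672 (9.52%). The pairs share libraries and are not independent, so the rate of 1 in 20 does not test the excess. KO_media replicate 1 was the highest in 46 of the 68. Its CPM for interferon-stimulated and related genes were Ifit1 125, Isg15 84.1, Ifi205 4.41, Rsad2 228, Gbp5 19.7, Gbp2 74.9, Ddx58 159, Zbp1 119, Irf1 124, Irf7 439, Ifit3 167, Ifit3b 26, Tgtp2 9.02 and Ifi206 36.3. Its CPM for the other such genes were Shisa3 0.0258, Il1b 2.68, Nos2 0.309, Cxcl2 2.5, Acod1 16.9, Marco 2.86, Ccl5 12.8, Tnf 13.5, Saa3 21.5, Clec4e 25.8, Has1 0.0258, Fpr1 1.65, Fpr2 1.26, Myd88 115, Pik3ap1 462, Tnip3 27.9, Cd40 17.8, Stat2 281, Csf3 0.129, Cxcl10 17.9, Gpr84 3.53, Casp4 17.8, Mlkl 32, Gch1 22, Slc2a6 69.5, Cyp51 84, Srebf2 264, Ch25h 0.515, Tap1 184, Tap2 89.7, Ccnd1 92.6 and Bak1 83.1.

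Among the other libraries, KO_Pam3 replicate 1 was the highest for Vegfa at 10.3 CPM. KO_Pam3 replicate 2 was the highest for Fos at 18.2 CPM. KO_Pam3 replicate 3 was the highest for Cxcr4 at 5.45 CPM, Slc40a1 at 15.1 CPM and Trem1 at 4.31 CPM. KO_Pam3 replicate 4 was the highest for Cx3cl1 at 42.9 CPM and Zbtb16 at 0.0609 CPM. KO_Pam3 replicate 4 was the lowest for Cd36 at 343 CPM. KO_Pam3 replicate 5 was the highest for Acod1 at 12263 CPM, Gbp5 at 1057 CPM and Ifi206 at 58.6 CPM. KO_Pam3 replicate 6 was the highest for Ninj1 at 479 CPM and Tnfsf9 at 148 CPM. KO_Pam3 replicate 6 was the lowest for Tlr8 at 288 CPM and Dusp16 at 235 CPM. KO_media replicate 2 was the highest for Maff at 1.63 CPM. KO_media replicate 2 was the lowest for Tgfbr2 at 362 CPM. KO_media replicate 3 was the highest for Trav13n-4 at 0.921 CPM. KO_media replicate 3 was the lowest for Tlr4 at 148 CPM. KO_media replicate 5 was the highest for Il23a at 0.0224 CPM. KO_media replicate 6 was the lowest for Cebpd at 6.54 CPM and Jun at 166 CPM. The part of the library itself in these values was not tested.

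The log2 response of knockout cells differed from that of wild type by edgeR's test of the difference (adjusted p under 0.05) for 30 of the 338 named genes. Over all tested genes it differed for 110 of 14435 (0.762%). Of these 30, 13 were named for the size of this difference, so their number is in part fixed by the choice. The lists behind other names were chosen with earlier results of these data known, so these shares are not compared. Knockout minus wild type was Il1a 0.73, Fcgr2b 0.30, Il20rb 0.52, Kdm6b 0.48, Dio2 0.78 and Gpr155 0.76 for those above 0. It was Ifit1 -0.96, Ccl7 -0.58, Tlr2 -0.24, Nfkbie -0.31, Csf1 -0.52, Gbp2 -0.69, Irf1 -0.53, Irf7 -0.83, Ifit3 -1.18, Slc2a6 -0.43, Gla -0.24, Mertk -0.48, Cd300a -0.26, Tap1 -0.60, Icam1 -0.25, Mmp14 -0.57, Marcksl1 -0.43, Cdkn1a -0.46, Ifit3b -0.98, Tgtp2 -1.12, Ifi206 -1.04, Calhm6 -0.83, Cd101 -1.35 and Ighm -0.47 for those below 0. In all 24 fits that leave out 1 library the difference passed for Calhm6, Cdkn1a, Csf1, Dio2, Fcgr2b, Ighm, Irf1, Mertk, Mmp14 and Nfkbie. It missed the threshold in 1 for Gpr155, Il20rb and Tap1, 3 for Ifit3, Irf7 and Marcksl1, 4 for Kdm6b, 5 for Tgtp2, 7 for Slc2a6, 12 for Ifit1, 16 for Gla, Ifi206 and Ifit3b, 17 for Ccl7, Cd101, Cd300a and Gbp2, 19 for Tlr2, 20 for Il1a and 21 for Icam1 of these fits.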

How the results depend on the processing

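Of the counts of changed genes, 2 stayed within 1.5 times their value under every alternative run: 6470 lower and 1051 at least 4-fold higher. Scaling by total reads gave 3685 genes higher, 2402 at least 4-fold lower and 54 with a lower response in knockout cells. A test against a 1.5-fold change gave 3544 higher. With no filter on low counts 2404 genes were at least 4-fold lower and 41 responded less, and limma-trend on log2(RPKM + 0.1) gave 928 at least 4-fold lower. DESeq2 called 82 responses higher and 258 lower in knockout cells. Leaving out 1 library in turn gave 5744 to 6040 genes higher and 6395 to 6733 lower, and 8 to 102 responses higher and 20 to 442 lower in knockout cells. With KO_media replicate 1 and WT_Pam3 replicate 5 both left out, an alternative chosen after seeing the data, 91 were higher and 411 lower. Cd36 was at -0.33 with scaling by total reads and -0.03 with upper quartile scaling, and scaling by total reads put Cd86 at -0.01 and Cd80 at -0.15. The cause was not tested. Depth limits genes with few reads in media, whose fitted fold changes are no bounds. The labels give no replicate numbers. Sample identifiers in the labels rise in matching steps in both knockout groups, without a statement that they pair libraries. With a replicate block by that order, chosen after seeing the data, the 12 knockout libraries gave 5944 genes higher and 6400 lower, against 5906 and 6349 without the block. Deviations of such pairs from their group means correlated at 0.01 to 0.16, above 0.1 in 2 of 6 pairs, and 1 of 6 correlated best with its own partner. No other paired analysis was made.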
